A study of Homo sapiens with 16 samples.

Results

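Most mitochondrial proteins are made in the cytosol and enter the organelle through protein channels. The 39 genes described here encode that import route and the proteins that fold, cut and degrade what comes through it, and they were chosen by symbol from the 33121 entries of a table of counts. Of the 39, 38 passed the filter on low counts and were among the 15569 genes tested. TIMM22 did not pass.

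Receptors and the channel of the TOM complex pass precursors through the outer membrane. Proteins with an N-terminal presequence then go through the TIM23 complex and are pulled into the matrix by the chaperone HSPA9, while small TIM chaperones of the intermembrane space guide carriers and other membrane proteins. In the matrix the presequence is removed, the protein is folded by HSPD1 and its partners, and damaged protein is degraded by LONP1, CLPXP and the membrane-bound proteases, which respond to mitochondrial stress in many cell types.

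RNA was sequenced from HAP1, a near-haploid human cell line derived from a chronic myeloid leukaemia. There were 4 groups of 4 libraries: cells with the genotype SLC30A10_delta, their SLC30A10+/+ control set, cells deleted for another gene, here called the second knockout, and the control set of that experiment, here called the second control set. In the labels a single cell line identifier covers the 8 control libraries, each deletion has another, and neither the number of clones nor whether libraries came from separate cultures is given. P-values therefore measure the spread between these libraries only, and an effect of a deletion cannot be told apart from a feature of the line that carries it. SLC30A10 encodes a manganese exporter of the cell surface, and both experiments ask which genes change when a gene is removed.

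The libraries held 16058856 to 16648151 counts each. SLC30A10 itself had 6 to 9 counts in its control set and 3 to 11 in the SLC30A10 knockout, too few to be tested, so its counts did not check the label. The 6 haematopoietic marker genes examined had at most 9 counts in any library, and 5 or 6 of them had at most 3 counts throughout each group. The 4 mesenchymal markers summed to 639 to 695.5 CPM in the SLC30A10 control set, 389 to 402 in the SLC30A10 knockout, 446 to 589 in the second control set and 539 to 693.5 in the second knockout, where CPM is counts per 1000000 of the scaled library size. Most of that sum was VIM (means of 629.9, 357.5, 473.5 and 568 CPM in that order), and COL1A2 had at most 4 counts. The 4 epithelial markers summed to 47.8 to 55.5, 56.7 to 64.1, 46.6 to 51.5 and 37.04 to 40.4 CPM, mostly KRT18, with CDH1 at no more than 5 counts. The markers thus differed between groups, and their part in the members' values was not tested. Some libraries stood apart. Library 3 of the SLC30A10 control set held the highest level of its group for 27 of the 38 members (71.1%), against 33.9% of all tested genes. Library 4 of the second knockout was high for DDIT3 and CEBPB, which encode stress transcription factors.

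The promoters of the 34 members that matched the RefSeq promoter table (GRCh38.p14, 250 bases before to 50 after the start) were searched on both strands for short motifs. The ETS motif CCGGAAGT was present in 5 of them (14.7%), against 4.11% of 34943 promoters, and the NRF1 half-site GCGCATGC in 4 (11.8%), against 3.02%. The core TGATGCAA, read by ATF4 with C/EBP proteins, was found for 2 members (5.88%), against 0.87%. Of the heat shock element motifs, GAANNTTC was in no member window, against 6.79% of all promoters, and TTCNNGAA was in 3 (8.82%), against 7.74%. These matches are descriptions of letters in a window and not of binding. The bases before the start are printed for TOMM20 (chr1:235128838-235129087, minus strand) and TOMM70A (chr3:100401090-100401339, minus strand), which were both higher in the SLC30A10 knockout, and for GRPEL2 (chr5:149345249-149345498, plus strand), which varied most between libraries of the second experiment. TOMM34, also higher in that knockout, held none of the motifs. TOMM6 and TIMM10 held CCGGAAGT and were not called there. A relation between motifs and changes was not tested. The 104 bases that separate the starts of the divergent pair HSPD1 and HSPE1 (chr2:197500275-197500378, read on the HSPD1 strand) are printed because both chaperonin genes start there. Capitals mark CCGGAAGT and, in TOMM70A, the 8 bases that match TTCNNGAA, and the HSPD1 stretch holds none of the motifs.
TOMM20: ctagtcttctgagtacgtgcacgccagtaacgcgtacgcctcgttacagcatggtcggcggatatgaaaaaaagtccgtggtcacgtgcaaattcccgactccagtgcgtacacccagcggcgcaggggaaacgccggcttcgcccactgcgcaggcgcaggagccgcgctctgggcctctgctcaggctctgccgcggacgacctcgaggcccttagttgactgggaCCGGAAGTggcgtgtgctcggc
TOMM70A: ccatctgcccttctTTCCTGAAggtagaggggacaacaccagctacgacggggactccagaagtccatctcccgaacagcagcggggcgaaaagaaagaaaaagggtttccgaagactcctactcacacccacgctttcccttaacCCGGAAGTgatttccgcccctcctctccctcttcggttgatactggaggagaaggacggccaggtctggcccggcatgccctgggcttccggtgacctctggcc
GRPEL2: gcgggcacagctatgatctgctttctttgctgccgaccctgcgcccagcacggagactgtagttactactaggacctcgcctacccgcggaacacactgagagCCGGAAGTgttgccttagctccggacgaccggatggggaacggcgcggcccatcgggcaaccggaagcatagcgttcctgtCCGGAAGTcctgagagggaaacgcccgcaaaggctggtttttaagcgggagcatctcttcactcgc
HSPD1: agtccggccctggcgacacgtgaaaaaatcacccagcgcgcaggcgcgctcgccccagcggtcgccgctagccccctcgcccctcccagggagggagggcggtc

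Levels compared per length are given as CPM per kilobase of annotated exon, averaged over the 16 libraries. HSPD1 stood highest at 836, followed by TOMM6 at 258, HSPA9 at 159.9, TRAP1 at 137 and TOMM20 at 134. TIMM8A had 6.05, HTRA2 9.28, TIMM21 12.1 and GRPEL2 12.3. HSPE1 makes the lid of the chaperonin chamber that HSPD1 forms, yet had 39.4. Of the exon bases of HSPE1, 35.0% are shared with other annotated genes, as are 94.2% for TOMM6, 74.7% for TOMM5, 46.8% for HTRA2 and 45.9% for TIMM8B, and whether reads there were counted, and with which strand, is not given in the sources used here. The levels of these genes are uncertain for that reason. The entry named TIMM22, for the channel that inserts carriers into the inner membrane, held 0 or 1 counts in each library, while a numbered further copy of that symbol held 498 to 785.

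The SLC30A10 knockout was compared with its own control set to ask which members change with that deletion. The test was edgeR's quasi-likelihood test over all 15569 genes with Benjamini-Hochberg adjustment, and a gene was called at an adjusted p under 0.05. Of the 38 tested members, 16 were called (42.1%), 10 higher and 6 lower, against 41.4% of all tested genes, so the share of members called was near the background. The median log2 fold change of the members was 0.01, and that of all tested genes was close to 0. The changes were small, with none of the 38 reaching 0.5 on the log2 scale in either knockout. The groups did not overlap for 14 members, against 38.3% of all tested genes.

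**Figure D1:**
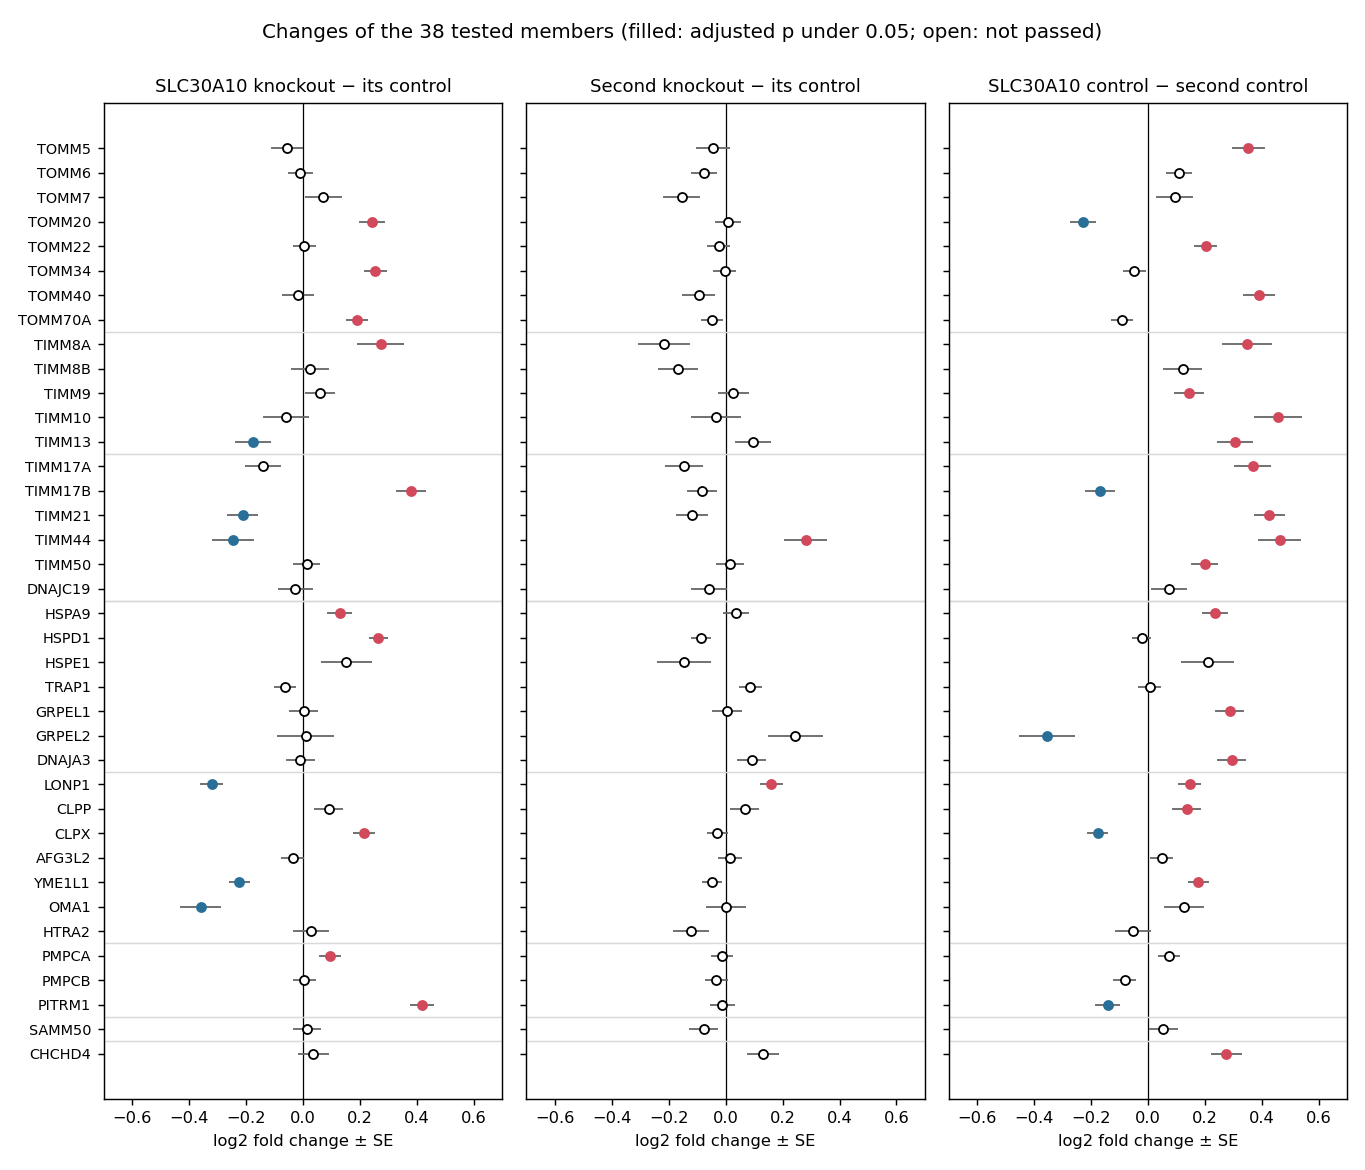
Log2 fold change ± SE of the 38 tested members (rows, ordered by role, with lines between roles) in the SLC30A10 knockout against its control set, the second knockout against its control set, and the SLC30A10 control set against that of the second experiment. Red marks members called higher and blue members called lower at an adjusted p under 0.05 (edgeR): 10 and 6 on the left, 2 and 0 in the middle, 18 and 5 on the right.

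Of the 8 TOM genes, 3 were called in the SLC30A10 knockout (37.5%, against 41.4% of all tested genes), all higher. TOMM34, a cytosolic co-chaperone that binds precursors together with heat shock proteins, measured 109.9, 105, 112 and 109 CPM in the knockout and 90.5, 88.6, 96.2 and 91.1 in its control set. All 4 knockout libraries lay above every control library, by 0.25 ± 0.04 (log2, SE; edgeR adjusted p = 1.02e-05). TOMM20, the receptor for presequences, measured 472, 487, 479.5 and 455 CPM against 422, 403, 372 and 406, a difference of 0.24 ± 0.05 (edgeR adjusted p = 0.000108). Its control set was the low group here, since the second control set stood at 447 to 498 CPM and overlapped the knockout. TOMM70A, the receptor for carrier proteins, ranged from 159 to 164 CPM in the knockout and from 137 to 149 in its control set (0.19 ± 0.04, edgeR adjusted p = 0.000348). The channel TOMM40, the central receptor TOMM22 and the small subunits TOMM5, TOMM6 and TOMM7 did not pass the test, with log2 values from -0.06 to 0.07.

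The members of the TIM23 complex did not move in 1 direction. TIMM17B and TIMM17A are alternative forms of the same channel subunit. TIMM17B (chrX:48893447-48898143, RefSeq GRCh38.p14) measured 76.1, 70.5, 77.8 and 74.2 CPM in the SLC30A10 knockout and 55.6, 57.1, 60.2 and 56.6 in its control set, a rise of 0.38 ± 0.05 (edgeR adjusted p = 1.45e-06). All knockout libraries were above all 8 control libraries. TIMM17A measured 84.5, 83.5, 83.3 and 84.7 CPM against 88.4, 93.97, 105 and 82.8, and its difference of -0.14 ± 0.06 did not pass (edgeR adjusted p = 0.0822). TIMM44, which tethers HSPA9 to the channel, measured 89.7, 77.6, 83.9 and 91.4 CPM in the knockout and 97.2, 99.6, 114 and 95.6 in the control set. It fell without overlap (-0.25 ± 0.07, edgeR adjusted p = 0.00938), as did TIMM21, which links TIM23 to the outer membrane and the respiratory chain (-0.21 ± 0.05, edgeR adjusted p = 0.00246). Against both control sets pooled these decreases were no longer called, with TIMM44 at -0.01 and TIMM21 at 0.001. The receptor TIMM50 and the J-protein DNAJC19 were at 0.01 and -0.03 and did not pass.

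Among the small TIM chaperones, TIMM8A rose and TIMM13 fell in the SLC30A10 knockout. Their proteins work together in a complex. TIMM8A (chrX:101345661-101348742), the gene of deafness-dystonia syndrome, measured 28.1, 26.97, 25.6 and 27.9 CPM against 22.8, 21.7, 23.1 and 22.3 (0.27 ± 0.08, edgeR adjusted p = 0.00972). Every knockout library was above every control library. TIMM13 measured 126, 109, 122 and 122 CPM against 124, 135, 158 and 124, and the groups overlapped (-0.18 ± 0.06, edgeR adjusted p = 0.0259). Without library 3 of the control set, the high one, its value was -0.09 and was not called, and without library 2 of the knockout it was -0.13 and not called. TIMM8B, TIMM9 and TIMM10 did not pass, nor did CHCHD4, the oxidase receptor that traps such proteins in the intermembrane space (0.04), or SAMM50, the core of the outer-membrane sorting complex (0.01).

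TIMM8A and TIMM17B lie on the X chromosome. Among the 20 tested genes nearest to TIMM8A in RefSeq order, the median log2 fold change in the SLC30A10 knockout was 0.46 and 15 were called higher, none lower. Around TIMM17B the median was 0.37, with 17 of 20 called higher and none lower. Both members thus moved with their neighbours. No other placed member had a neighbour median above that of CLPP, the peptidase of CLPXP, at 0.19. The neighbour medians of PITRM1 (-0.09), HSPD1 (-0.03) and LONP1 (0.09) lay on the other side of 0 from the member itself. Around PITRM1, 7 neighbours were called lower and 4 higher, and around HSPD1 4 each way. Around LONP1 the calls went mostly in its own direction, with 7 lower and 5 higher. For YME1L1, OMA1 and TIMM13, which were called lower, the neighbours were on the same side, with medians of -0.12 (8 of 20 called lower and 1 higher), -0.09 (9 lower and 3 higher) and -0.07 (6 lower and 1 higher). Around TIMM21 and TIMM44, also called lower, the medians were nearer 0, at -0.05 (5 lower and 8 higher) and -0.02 (6 lower and 3 higher). The part of the neighbourhood in these changes was not tested.

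**Figure D2:**
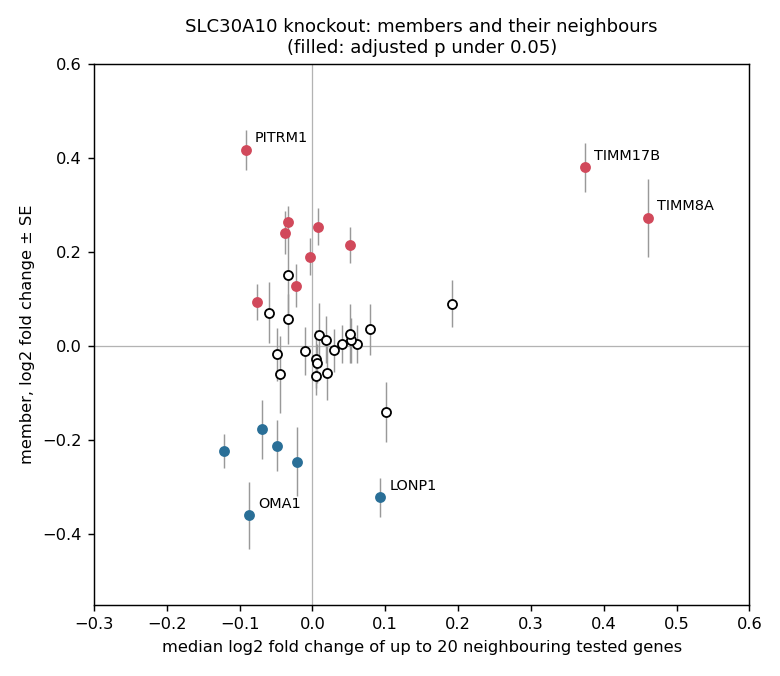
Each placed member's log2 fold change ± SE in the SLC30A10 knockout against its control set (vertical axis), plotted over the median log2 fold change of the 20 tested genes nearest to it in RefSeq order (horizontal axis). Filled points were called higher (red) or lower (blue) at an adjusted p under 0.05 (edgeR), and TIMM8A and TIMM17B sit apart at neighbour medians of 0.46 and 0.37.

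HSPD1, the chaperonin HSP60, was the most abundant member by counts in every library. It measured 2473, 2520.4, 2403 and 2504 CPM in the SLC30A10 knockout and 2040.5, 2071, 2145 and 1987 in its control set. The knockout libraries lay above all 8 control libraries, and the rise was 0.26 ± 0.03 (edgeR adjusted p = 5.16e-07). HSPE1, its co-chaperonin, measured 54.2, 39.2, 45.7 and 52.8 CPM against 42.3, 43.2, 49.2 and 37.98, with overlapping groups (0.15 ± 0.09, edgeR adjusted p = 0.186). The log2 ratio of HSPD1 to HSPE1 was 5.70 ± 0.22 (SD, n = 4) in the knockout and 5.58 ± 0.11 in the control set. HSPA9, the matrix HSP70 that drives import, ranged from 853 to 873 CPM in the knockout and from 753 to 857 in the control set. Its rise of 0.13 ± 0.05 was called (edgeR adjusted p = 0.0248), but not without library 2 or 4 of the knockout or library 1, 2 or 4 of the control set, where it was 0.10 to 0.13. The nucleotide exchange factors GRPEL1 and GRPEL2, the J-protein DNAJA3 and the HSP90 relative TRAP1 were between -0.06 and 0.01 and did not pass.

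Of the 7 proteases, 1 was called higher and 3 lower in the SLC30A10 knockout (57.1% called, against 41.4% of all tested genes). LONP1, the main soluble protease of the matrix (chr19:5691834-5720452), measured 159, 153, 165 and 161 CPM in the SLC30A10 knockout and 192, 204, 209 and 191 in its control set. All 4 knockout libraries were below all 8 control libraries, and the fall was -0.32 ± 0.04 (edgeR adjusted p = 4.31e-07). OMA1, the stress-activated protease that cleaves OPA1 (chr1:58480719-58546726), measured 20.5, 23.6, 20.4 and 21.05 CPM against 28.99, 25.6, 26.8 and 28.3 (-0.36 ± 0.07, edgeR adjusted p = 0.000193). Its groups did not overlap, but the knockout library at 23.6 CPM lay above the second control library at 23.3. YME1L1, the inner-membrane protease that also cleaves OPA1, measured 231 ± 3.48 CPM (SD, n = 4) in the knockout and 269 ± 10.9 in the control set (-0.22 ± 0.04, edgeR adjusted p = 1.75e-05). The second control libraries, at 230 to 246 CPM, overlapped the knockout for YME1L1. CLPX, the unfoldase of CLPXP, moved the other way, at 175, 176, 176 and 172 CPM against 155, 148, 149.9 and 150.1 (0.21 ± 0.04, edgeR adjusted p = 4.73e-05). Its second control libraries, at 163 to 178 CPM, overlapped the knockout. CLPP (67.2, 68.8, 74.9 and 73.7 against 62.9, 67.4, 71.7 and 65.5 CPM), AFG3L2, a subunit of the m-AAA protease, and HTRA2 of the intermembrane space did not pass.

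PITRM1, the peptidase that degrades free presequences (chr10:3137727-3172841), had the largest rise of the members. It measured 98.3, 94.03, 101 and 97.01 CPM in the SLC30A10 knockout and 73.2, 72.97, 69.3 and 76.8 in its control set, a rise of 0.42 ± 0.04 (edgeR adjusted p = 7.74e-09). Every knockout library was above all 8 control libraries. The antisense gene PITRM1-AS1, which shares 15.3% of the PITRM1 exon bases, had 27 to 62 counts a library. PITRM1-AS1 was also called higher in the SLC30A10 knockout (0.47 ± 0.17, edgeR adjusted p = 0.0288). The part of the shared bases in either value was not tested. PMPCA and PMPCB form the peptidase that removes presequences. PMPCA measured 133, 129, 139 and 133 CPM against 124, 125, 128 and 124, a rise of 0.09 ± 0.04 at the edge of the threshold (edgeR adjusted p = 0.0495) that was not called under 8 of 10 other settings, nor without library 1, 3 or 4 of the knockout or library 1, 2 or 4 of the control set (0.07 to 0.10). PMPCB measured 115, 106, 107 and 105 against 109.6, 109, 111 and 103 CPM and did not pass (0.00 ± 0.04).

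**Figure D3:**
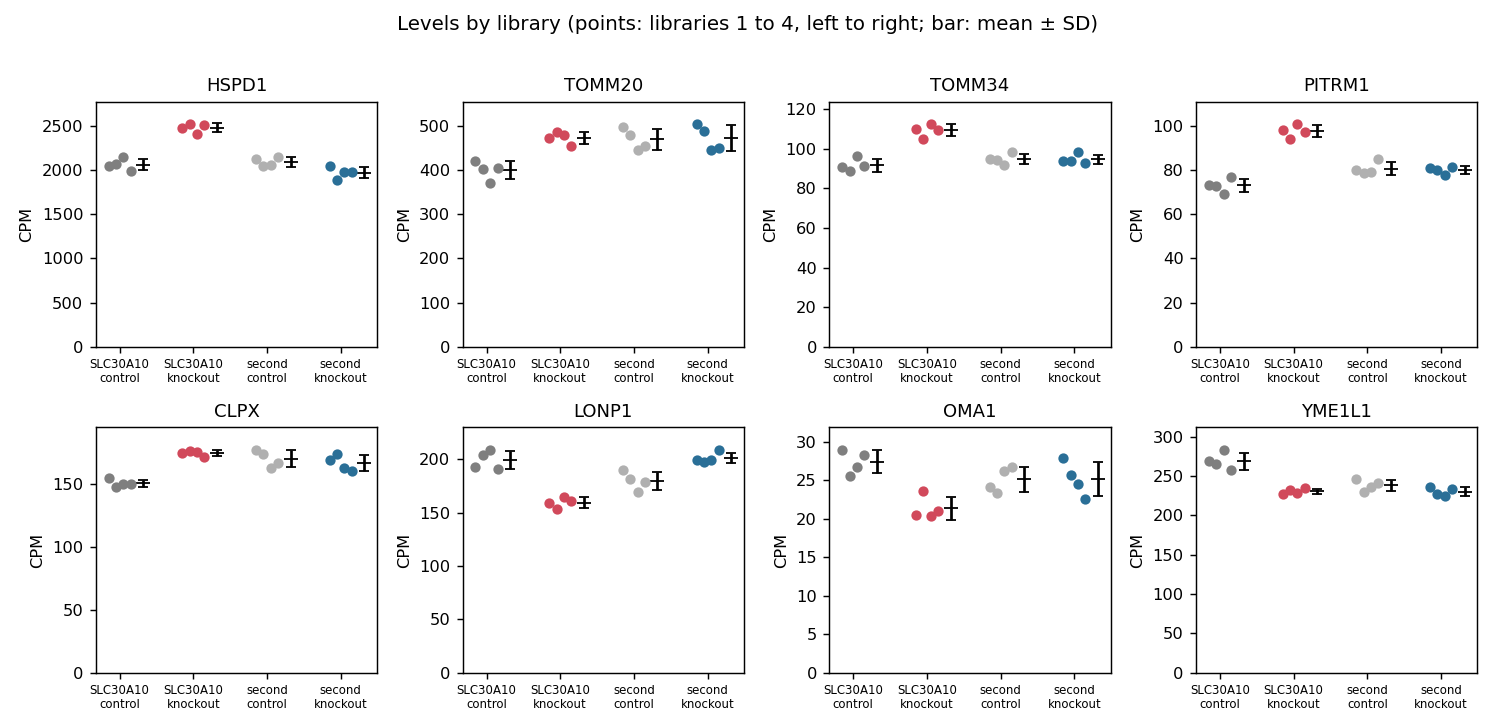
CPM of 8 members in each of the 16 libraries (points, libraries 1 to 4 from left to right in each group) with the group mean ± SD (bars, n = 4). HSPD1, TOMM34 and PITRM1 in the SLC30A10 knockout lie above both control sets and LONP1 lies below both. TOMM20, CLPX, OMA1 and YME1L1 in the knockout overlap the second control set.

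Because the control sets differed, each knockout was also set against all 8 control libraries. In the SLC30A10 knockout, 8 of the 38 tested members lay wholly outside them: TOMM34, TOMM70A, TIMM8A, TIMM17B, HSPD1, PMPCA and PITRM1 above, and LONP1 below. All 8 were among the 16 called members. The share of tested members was near the 20.6% of all tested genes that lay outside. In the second knockout no member did, against 9.34% of all tested genes. A fit with pooled control sets takes their mean as the base, so the difference between the sets enters both effects. Where the SLC30A10 control set is higher, this raises the SLC30A10 effect and lowers the second. Against their own control sets, the median over the members was 0.01 and -0.03. With both control sets pooled in the fit, 22 members (57.9%) were called in the SLC30A10 knockout, against 42.8% of all tested genes, 19 of them higher, against 21.9% of all tested genes, and 3 lower. In the second knockout 16 members (42.1%) were called, against 34.3% of all tested genes, 14 of them lower, against 16.8%. In that fit the SLC30A10 knockout value was 0.13 for TOMM20, 0.13 for CLPX and -0.14 for YME1L1, smaller than against the knockout's own control set, and 0.45 for TIMM8A and 0.25 for HSPA9, larger. TIMM13 was at -0.02 and not called.

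In the second knockout against its own control set, 2 of the 38 members were called (5.26%), against 13.7% of all tested genes, and both were higher. DESeq2 also called 2, and 1976 of all 15569 tested genes. LONP1 measured 199, 198, 199 and 208 CPM in the second knockout and 190.0, 181, 169.5 and 178 in its control set. The groups did not overlap, as for 16.3% of all tested genes, and the difference was 0.16 ± 0.04 (edgeR adjusted p = 0.00766). TIMM44 measured 86.97, 88.1, 75.6 and 108 CPM against 73.5, 76.8, 76.05 and 68.5, with overlap (0.28 ± 0.08, edgeR adjusted p = 0.0115). Both were highest in library 4 of the knockout. Without library 4 of both groups neither was called, with TIMM44 at 0.15 and LONP1 at 0.14. With both control sets pooled neither was called, with TIMM44 at 0.05 and LONP1 at 0.09. The SLC30A10 control libraries, at 191 to 209 CPM, overlapped the second knockout for LONP1. Without library 4 of the knockout alone, or of its control set alone, TIMM44 was not called, at 0.18 and 0.25. The median log2 fold change over the members was -0.03, beside -0.002 for all tested genes.

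GRPEL2, the second mitochondrial exchange factor, measured 58.5, 65.5, 53.3 and 84.6 CPM in the second knockout and 56.2, 60.3, 59.5 and 44.96 in its control set (0.25 ± 0.10, edgeR adjusted p = 0.0906). Library 4 was the highest of the knockout and library 4 of the control set the lowest of its group, and the difference did not pass. Its paralog GRPEL1 measured 76.00, 64.4, 71.1 and 69.4 against 72.6, 67.04, 70.2 and 70.3 CPM and differed by 0.00 ± 0.05. HSPA9 reached 774 CPM and DNAJA3 131 CPM in library 4 of the knockout, whose other libraries were at 639 to 683 and at 105 to 112. DDIT3, which encodes the stress factor CHOP, measured 27.4, 43.2, 23.8 and 72.9 CPM in the second knockout and 28.02, 31.9, 28.2 and 18.95 in its control set, so the same library 4 was its highest too. CEBPB, which encodes a partner of CHOP, was at 35.5, 47.7, 23.7 and 70.4 against 29.3, 36.1, 29.8 and 19.3 CPM. The part of this library's stress genes in the members' values was not tested.

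**Figure D4:**
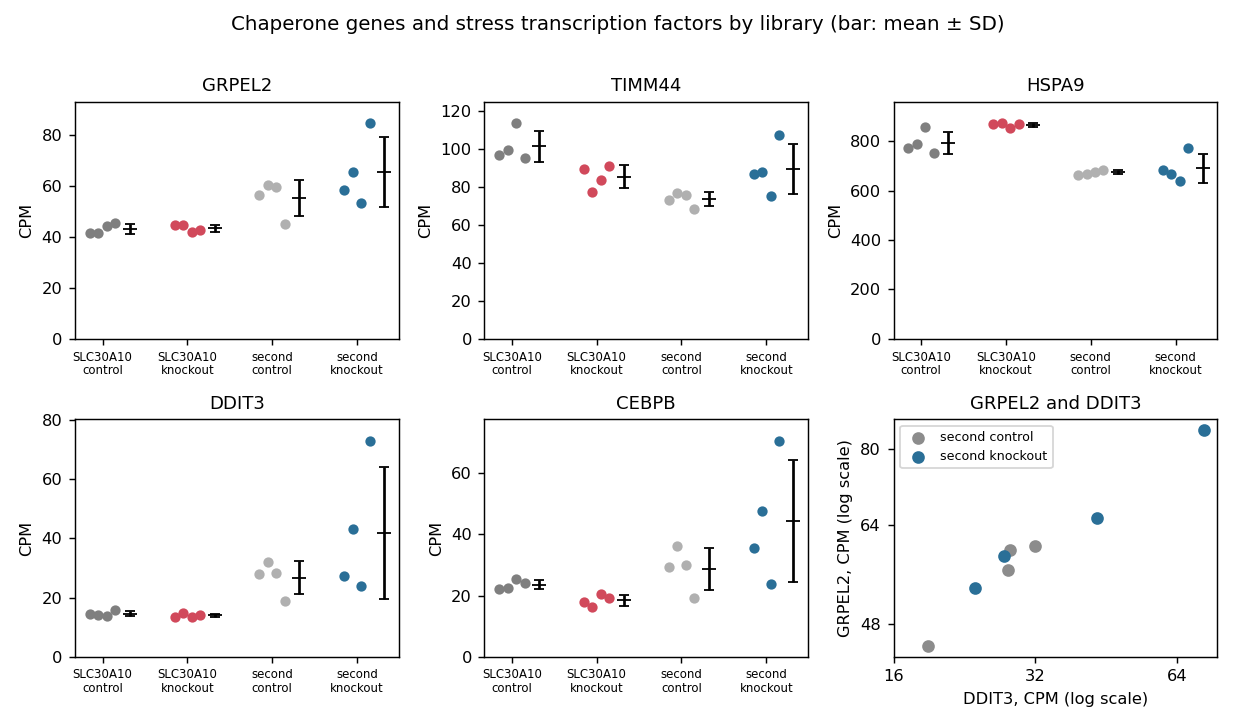
CPM by library (points, libraries 1 to 4 from left to right; bars, mean ± SD, n = 4) of GRPEL2, TIMM44, HSPA9, DDIT3 and CEBPB, and, in the last panel, GRPEL2 over DDIT3 in the 8 libraries of the second experiment on log axes. Library 4 of the second knockout is the highest of its group in each of the 5 genes, with DDIT3 at 72.9 CPM and GRPEL2 at 84.6.

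The difference of both knockout effects was tested in the same fit. It was called for 14 of 38 members (36.8%), against 31.3% of all tested genes. TIMM44 and LONP1, the 2 members called in both knockouts, were lower in the SLC30A10 knockout and higher in the second, each against its own control set. Their effects differed by -0.53 ± 0.11 (edgeR adjusted p = 0.000353) and -0.48 ± 0.06 (edgeR adjusted p = 2.73e-07). The SLC30A10 effect was the higher one for 8 members: TIMM8A (0.49 ± 0.12), TIMM17B (0.46 ± 0.07), PITRM1 (0.43 ± 0.06), HSPD1 (0.35 ± 0.05), TOMM34, CLPX, TOMM70A and TOMM20. It was the lower one for OMA1 (-0.36 ± 0.10), TIMM13, YME1L1 and TRAP1 besides TIMM44 and LONP1. The difference for TRAP1 (-0.15 ± 0.06, edgeR adjusted p = 0.0438) was lost (-0.13 to -0.15) without library 2 or 4 of the SLC30A10 knockout, of its control set or of the second control set, or library 1 or 2 of the second knockout. That for TIMM13 was lost without library 2 of the SLC30A10 knockout (-0.23). The estimated effects had opposite signs for 22 members and the same sign for 16.

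The control sets were compared to measure how far libraries under that shared identifier differ. More members were called here than in either knockout comparison: 23 of 38 (60.5%), against 39.3% of all tested genes. Of these, 18 were higher in the SLC30A10 control set, a direction called for 18.5% of all tested genes, and 5 were lower. The groups did not overlap for 23 members, against 36.3% of all tested genes. The median over the members was 0.13, beside -0.01 for all tested genes. This comparison shares its SLC30A10 control libraries with the SLC30A10 knockout comparison, so the values of each are given side by side and not counted together.

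Among the members higher in the SLC30A10 control set, TIMM44 and TIMM10 had the largest differences. TIMM44 measured 97.2, 99.6, 114 and 95.6 CPM in the SLC30A10 control set and 73.5, 76.8, 76.05 and 68.5 in the second (0.46 ± 0.07, edgeR adjusted p = 3.00e-05). TIMM10, a small TIM chaperone, measured 20.4, 19.7, 22.9 and 17.2 against 12.6, 13.9, 15.9 and 16.04 CPM (0.46 ± 0.08), and TIMM9, its partner, 40.9, 43.6, 42.4 and 40.7 against 39.3, 37.3, 38.7 and 36.6 (0.14 ± 0.05). In all 3 the sets did not overlap. TIMM21 measured 68.7, 69.8, 78.7 and 68.2 against 50.7, 50.7, 56.3 and 54.7 CPM (0.43 ± 0.05, edgeR adjusted p = 1.38e-06), and TIMM13 124, 135, 158 and 124 against 119, 112, 103 and 104 (0.31 ± 0.06). TIMM8A differed by 0.35 ± 0.09, with 16.1, 16.3, 18.3 and 19.9 CPM in the second control set, and TIMM8B, at 29.2, 28.97, 28.8 and 30.1 against 31.6, 28.8, 36.6 and 30.4, did not pass. Library 3 of the SLC30A10 control set was the highest of its group for TIMM44, TIMM10, TIMM21 and TIMM13. Leaving it out changed the number of calls by less than 1.5 times, but TIMM9 (0.14), CLPP (0.11) and PITRM1 (-0.11) were then not called. TIMM9 was also lost without library 2 of that set or library 2 or 4 of the second control set (0.13 to 0.14), CLPP without library 2 of that set or library 3 of the second (0.14 and 0.10), and PITRM1 without library 4 of the second (-0.11).

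Of the TOM genes, TOMM40 measured 246, 245, 295 and 229.8 CPM in the SLC30A10 control set and 180.5, 194, 205 and 197 in the second (0.39 ± 0.06, edgeR adjusted p = 7.29e-06). TOMM5 measured 80.2, 85.3, 95.00 and 82.4 against 69.4, 68.3, 67.9 and 63.1 CPM (0.35 ± 0.06, edgeR adjusted p = 3.54e-05). TOMM22 was higher as well (0.20 ± 0.04), and TOMM20 was lower (-0.23 ± 0.05). TIMM17A measured 88.4, 93.97, 105 and 82.8 CPM against 70.7, 64.6, 70.3 and 81.5, without overlap (0.37 ± 0.06). Beside these, the SLC30A10 knockout differed from its control set by -0.02 ± 0.06 for TOMM40, -0.06 ± 0.06 for TOMM5 and 0.24 ± 0.05 for TOMM20. Chaperone and import genes HSPA9, GRPEL1, DNAJA3, TIMM50 and CHCHD4 were also higher in the SLC30A10 control set, by 0.20 to 0.29, and the proteases LONP1, CLPP and YME1L1 by 0.14 to 0.18. The 5 lower members were TOMM20, TIMM17B (-0.17 ± 0.05, not called at -0.12 without library 1 of the second control set), GRPEL2 (-0.36 ± 0.10), CLPX (-0.18 ± 0.04) and PITRM1 (-0.14 ± 0.04). HSPD1 and TRAP1 did not pass, at -0.02 ± 0.03 and 0.01 ± 0.04. The members called in none of the 4 comparisons numbered 9: TOMM6, TOMM7, TIMM8B, DNAJC19, HSPE1, AFG3L2, HTRA2, PMPCB and SAMM50.

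**Figure D5:**
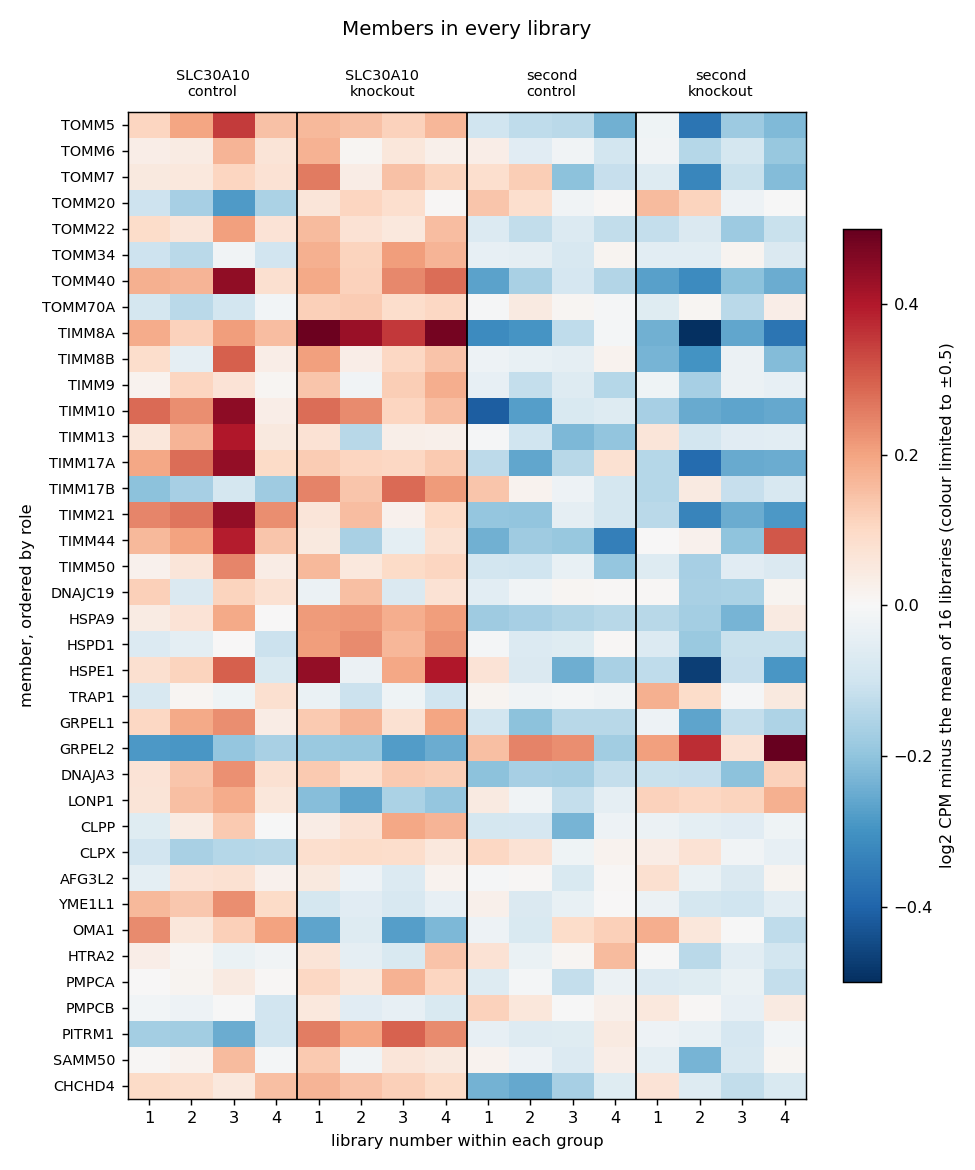
Log2 CPM of each tested member (rows, ordered by role) in each library (columns, grouped) minus its mean over the 16 libraries, with the colour scale limited to 0.5 either way. The SLC30A10 control set is redder than the second control set in most rows, library 3 of the SLC30A10 control set is the highest of its group in 27 of 38 rows, and GRPEL2 in library 4 of the second knockout stands out.

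Genes whose products act in pairs were compared as log2 ratios within each library, with two-sided exact permutation tests of 4 against 4 libraries, whose smallest possible p is 0.0286. Over 7 pairs and 3 comparisons, 6 of the 21 tests reached that p and none had an adjusted p under 0.05. With 6 tests at the smallest p, the adjustment over 21 tests gives 0.1 however far the groups lie apart. The adjusted p therefore cannot decide whether a ratio changed. The log2 ratio of TIMM17A to TIMM17B was 0.17 ± 0.06 (SD, n = 4) in the SLC30A10 knockout, 0.69 ± 0.11 in its control set and 0.15 ± 0.21 in the second control set. It was lower in the knockout than in its control set in all libraries (exact p = 0.0286, adjusted p = 0.1). The ratio of GRPEL1 to GRPEL2 was 0.98 ± 0.05 in the SLC30A10 knockout, 0.98 ± 0.12 in its control set, 0.35 ± 0.21 in the second control set and 0.12 ± 0.34 in the second knockout. PMPCA to PMPCB differed by 0.16 between the control sets (exact p = 0.0286, adjusted p = 0.1). CLPP to CLPX differed by 0.31 in that comparison, with the same p-values.

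Summed by role, the matrix chaperones stood at 4035 ± 54.2 CPM (SD, n = 4) in the SLC30A10 knockout, 3560.1 ± 120.2 in its control set, 3438 ± 55.3 in the second control set and 3372 ± 122 in the second knockout. The TOM genes summed to 1470.1 ± 17.5, 1364 ± 34.6, 1329.7 ± 26.9 and 1297 ± 35.5 CPM in the same order. The proteases summed to 827 ± 6.47, 886 ± 23.3, 843 ± 23.8 and 856 ± 15.9 CPM. The TIM23 genes were at 461 ± 9.81, 478 ± 33.6, 401 ± 6.40 and 402 ± 16.6 CPM. These sums carry no test, and HSPD1 makes up most of the chaperone sum.

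A wider list of 46 genes of import, protein quality control and stress signalling was read beside the members, and 43 of them were tested. PAM16, MTX3 and HSPA1A had too few counts. In the SLC30A10 knockout 21 were called (48.8%, against 41.4% of all tested genes), 9 higher and 12 lower. HSP90AA1, the inducible cytosolic HSP90 that delivers precursors to TOMM70A, measured 5007, 4918, 4821 and 4989.6 CPM against 3883, 3851, 4126 and 3695 and rose by 0.34 ± 0.04 (edgeR adjusted p = 4.60e-08). AIFM1, an inner-membrane flavoprotein that works with CHCHD4, measured 157, 157, 162 and 155 against 116, 121, 123 and 125 CPM (0.38 ± 0.04), and it lies on the X chromosome among neighbours with a median of 0.34. ATF4, the transcription factor of the integrated stress response, measured 357, 366, 347 and 348 CPM in the knockout and 542, 547, 582 and 559 in its control set, and fell by 0.65 on the log2 scale (SE 0.09, edgeR adjusted p = 1.01e-06). DNAJC15, a relative of DNAJC19, had 37 to 54 counts in the SLC30A10 control set and 0 to 4 in every other library.

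In the second knockout 6 genes of the wider list were called (14.0%), a share near the 13.7% of all tested genes. DDIT3 (0.64 ± 0.21) and CEBPB (0.63 ± 0.19) were higher, and LACTB (-0.23 ± 0.06), DNAJB1 (-0.30 ± 0.07), HSPH1 (-0.23 ± 0.07) and HSPA8 (-0.21 ± 0.07) were lower. All 6 had overlapping groups. The effects of both knockouts differed for 15 genes of the list (34.9%, against 31.3% of all tested genes), among them ATF4 (-0.86 ± 0.12), DNAJB1, an HSP70 cofactor (0.61 ± 0.10), and HSP90AB1 (0.26 ± 0.04). Between the control sets 20 were called (46.5%, against 39.3% of all tested genes), 18 of them higher in the SLC30A10 control set, a direction called for 18.5% of all tested genes. HSPA8, the constitutive cytosolic HSP70, measured 2815, 2759, 3521 and 2617 against 1905, 1805, 2009 and 2158 CPM (0.57 ± 0.07). TIMM23, the channel gene, measured 110.4, 113, 125 and 101 against 86.7, 82.1, 86.5 and 85.7 CPM (0.40 ± 0.05), and PHB, a scaffold of the inner membrane, 238, 239, 272 and 225 against 202, 199, 202 and 211 (0.26 ± 0.05).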

How the data were processed

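RNA was poly-A selected and read as paired ends in 16 libraries, per the labels. The authors deposited whole-number counts per gene symbol, and a table of normalized signal. For the symbols compared, that signal equals those counts times a constant per library within 8.69e-06 counts. Repeated symbols and symbols turned into dates were left out of that comparison, and 28 entries had no match in the normalized signal. HISAT2, featureCounts, DESeq2 and the builds hg38 and GRCh38 are named in the submitters' processing notes, without versions or roles, and the annotation and the use of strand are not given in the sources used here. The table holds 3103 numbered further copies of symbols, treated as separate genes.

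Counts were tested with edgeR 4.0.16 in R 4.3.3: genes kept by its expression filter (smallest count 10, smallest total 15), trimmed mean of M-values scaling, 1 mean for each of the 4 groups, no covariate, quasi-likelihood F tests and Benjamini-Hochberg adjustment over 15569 genes. CPM are counts per 1000000 of the scaled library size. DESeq2 1.42.0 was an alternative. Library totals of 16058856 to 16648151 and a common biological coefficient of variation of 0.0497 set the precision. The fit was tested on simulated data. Other scalings, filters, pooled control sets, a replicate block and left-out libraries were tried.

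Gene order, positions and promoters came from RefSeq GRCh38.p14, and exon lengths and overlaps from GENCODE. RefSeq order placed 90.9% of the tested genes. The members and lists were chosen with earlier results of these data known. Values in every library are given for up to 8 members per comparison with the largest called change and groups that do not overlap, for the 7 pairs, and for up to 4 genes of the wider list per comparison by adjusted p. TOMM20, TOMM34, CLPX, YME1L1, HSPA9, DDIT3 and CEBPB were plotted or listed after their values were seen. The gene deleted in the second experiment is not reported here.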

Additional observations from a re-analysis of the deposited data

Results flagged for a closer look

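A library lay apart from the other 3 of its group for 8 of 152 member and group combinations, measured as its gap to the nearest library over the range of the group and set against Dixon's 95% critical value for 4 libraries. About 7.6 are passed by chance. Library 3 of the SLC30A10 control set was high for TIMM21 (78.7 CPM, gap ratio 0.843), TIMM50 (134.8 CPM, 0.846) and SAMM50 (83.0 CPM, 0.846). Library 2 of the second knockout was low for TIMM9 (36.1 CPM, 0.856) and TIMM50 (101.4 CPM, 0.883). In that group library 1 was high for TIMM10 (14.96 CPM, 0.881) and library 4 for LONP1 (208 CPM, 0.864), and library 3 of the second control set was low for AFG3L2 (140.3 CPM, 0.84).

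The effects of both knockouts differed by the test of the difference itself for 14 members (edgeR, adjusted p under 0.05, log2 of the SLC30A10 effect minus the second). Positive differences were found for TOMM20 (0.23), TOMM34 (0.26) and TOMM70A (0.24), for the X-linked TIMM8A (0.49) and TIMM17B (0.46), and for HSPD1 (0.35), CLPX (0.24) and PITRM1 (0.43). Negative differences were found for TIMM13 (-0.27), TIMM44 (-0.53), TRAP1 (-0.15), LONP1 (-0.48), YME1L1 (-0.18) and OMA1 (-0.36). Each effect is measured from its own control set. For TOMM20, TIMM13, TIMM44 and YME1L1 the knockouts themselves stood at close mean levels, and the control sets differed.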

How the results depend on the processing

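Pooling both control sets changed the most, and the difference between those sets enters that fit. In the SLC30A10 knockout 19 members were called higher (50%, against 21.9% of all tested genes) and 3 lower, with a median log2 change of 0.12. In the second knockout 16 were called, 14 lower (36.8%, against 16.8% of all tested genes). Calls over all tested genes in the second knockout rose as well, from 2132 to 5341 of 15569. TIMM21 then changed sign in the SLC30A10 knockout (0.001, edgeR adjusted p = 0.988). Under the other scalings, filters, DESeq2, the fit to the groups compared and the summed copies of a symbol (chosen after seeing the data), all counts stayed within 1.5 times. Leaving out libraries gave 0 to 4 calls in the second knockout, 0 to 3 higher and 0 to 1 lower, the lowest without library 4 of both groups (chosen after seeing the data). Over all tested genes, 1509 to 2146 were called in the same fits, and the lowest was again the one without library 4 of both groups. Of single members, 483 values kept their call and direction under the settings other than left-out libraries and 15 lost the call. With a library left out, 518 kept it and 36 lost it, 6 of these for PMPCA and 8 for TRAP1.

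Whether same-numbered libraries were handled together is not given in the labels. Their deviations from the group means correlated by -0.10 to 0.12. With the replicate block, 15 of the 38 members were called in the SLC30A10 knockout (PMPCA was lost) and 2 in the second. For the difference 14 were called, and between the control sets 24. Of all 15569 tested genes, 6497, 2160, 4882 and 6181 were called in that order. No pair ratio could be called with that block, the smallest possible p being 0.125. In the SLC30A10 knockout comparison the SE was 0.08 for TIMM8A, a low gene, and 0.06 for HTRA2 at a similar level. The smallest change that could be detected was not computed.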

Other observations

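GRPEL2 followed the stress factor gene DDIT3 across the 8 libraries of the second experiment, a pattern noticed in these libraries. Its correlation on log2 CPM, computed for all 38 members, is a description and carries no p, since DDIT3 was chosen after its values were seen. For GRPEL2 Pearson's r was 0.978 and Spearman's rho was 0.976. Without the 2 libraries farthest from the median of DDIT3, libraries 4 and 2 of the second knockout, r was 0.967. TIMM44 had an r of 0.92 and a rho of 0.81, with r at 0.573 without those libraries, so its relation rests on them. With 4 libraries in each group, no relation was computed within a group. For HSPA9 and DNAJA3, r was 0.751 and 0.793 with all libraries and -0.037 and -0.327 without them. GRPEL1, the paralog of GRPEL2, had an r of -0.392. In the SLC30A10 experiment GRPEL2 ranged from 41.4 to 45.3 CPM in the control set and from 41.8 to 44.6 in the knockout, where DDIT3 ranged from 13.8 to 15.7 and 13.4 to 14.8 CPM.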
